A study of Mus musculus with 16 samples.

Results

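The circadian clock genes described here were 10 genes of the mouse liver: Nr1d1, Nr1d2, Dbp, Tef, Hlf, Per1, Per2, Cry1, Npas2 and Clock. They were chosen by name from the 57010 genes of the deposited table, with earlier results of the same mice known, in which Nr1d1 had been singled out by its values in Cd-treated mice. The levels of the members are therefore given as a description, with standard errors and counts but no test. Levels are in TPM, transcript levels corrected for length and scaled so that every library has the same total. Of the 10 members, 9 averaged 1 TPM or more across all mice and were among the 11766 genes compared. Npas2 was listed at 0 to 0.07 TPM in every mouse and stayed outside.

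Liver RNA was sequenced from 16 male wild-type C57BL/6J mice in 4 groups of 4, to compare cadmium injury of the liver with and without selenium. Their age is given as 8 to 12 weeks and, in the treatment scheme, as 8 weeks at the start of the diet of 3 months. The age at which livers were taken is not stated. The control group received neither agent, the Cd group CdCl2 at 1.25 mg/kg by daily intraperitoneal injection for 7 days, the Se group a diet with 2 ppm selenomethionine (SeMet) over 3 months, and the Cd+Se group that diet with the injections over its final 7 days. The mice are named by the numbers of the labels, with controls 27 to 30, Cd mice 1, 2, 5 and 6, Cd+Se mice 13 to 16 and Se mice 39, 40, 41 and 44. Each label sets 2 replicate marks beside 1 mouse number, for 1 column of values. A sample was therefore taken as 1 mouse, so n = 4 rests on that reading, and what the marks stand for is not given in the sources used here. Sequencing depth cannot be read from TPM and is unknown here, so the precision of each value rests on the 4 mice of a group.

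The liver clock is a loop of transcription factors. CLOCK, or its relative NPAS2, pairs with BMAL1 and switches on genes through a DNA motif called the E-box, among them the Per and Cry genes, whose proteins return to block the pair. REV-ERBα (Nr1d1) and REV-ERBβ (Nr1d2) are nuclear receptors that repress Bmal1 and compete with the ROR receptors for shared sites. DBP, TEF and HLF, the PAR bZIP factors, act through D-boxes and carry the rhythm to genes of detoxification and metabolism. In mouse liver the mRNAs of Nr1d1, Nr1d2, Dbp, Tef, Hlf, Per1 and Per2 are known to peak between the light phase and early night, and those of Cry1, Npas2 and Clock from late night to dawn; the former are called evening genes and the latter dawn genes below. A level of any of them depends on the hour, and neither the labels nor the methods state the time of day at which livers were taken.

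Promoter sequences from RefSeq (GRCm38.p6) were matched by symbol for 9 of the 10 members, all but Per2. The 250 bases before the start of transcription are shown for the REV-ERB pair, whose differences between groups were unlike in size, and for Per1 and Cry1, an evening and a dawn gene that both hold an E-box. Capitals mark the E-box CACGTG, the D-box TTATGNAA and AGGTCA, the core of the REV-ERB and ROR site, on either strand (TGACCT is AGGTCA on the other strand); no marked motif overlaps another. The regions are chr11:98775378-98775627 (minus strand) for Nr1d1, chr14:18239107-18239356 (minus strand) for Nr1d2, chr11:69098699-69098948 (plus strand) for Per1 and chr10:85185055-85185304 (minus strand) for Cry1.
Nr1d1: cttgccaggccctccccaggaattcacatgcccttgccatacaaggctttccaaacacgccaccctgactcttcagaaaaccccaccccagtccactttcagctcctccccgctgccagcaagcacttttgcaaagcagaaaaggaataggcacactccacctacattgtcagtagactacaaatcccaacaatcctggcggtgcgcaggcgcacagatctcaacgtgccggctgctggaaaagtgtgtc
Nr1d2: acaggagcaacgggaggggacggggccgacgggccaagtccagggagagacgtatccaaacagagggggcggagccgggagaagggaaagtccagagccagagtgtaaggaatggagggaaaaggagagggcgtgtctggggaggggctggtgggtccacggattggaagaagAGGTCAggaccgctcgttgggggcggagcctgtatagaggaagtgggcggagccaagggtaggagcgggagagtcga
Per1: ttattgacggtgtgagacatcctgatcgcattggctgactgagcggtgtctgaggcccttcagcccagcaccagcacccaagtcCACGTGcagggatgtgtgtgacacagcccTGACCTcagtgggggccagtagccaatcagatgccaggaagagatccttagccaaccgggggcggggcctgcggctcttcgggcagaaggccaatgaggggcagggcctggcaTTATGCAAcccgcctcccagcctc
Cry1: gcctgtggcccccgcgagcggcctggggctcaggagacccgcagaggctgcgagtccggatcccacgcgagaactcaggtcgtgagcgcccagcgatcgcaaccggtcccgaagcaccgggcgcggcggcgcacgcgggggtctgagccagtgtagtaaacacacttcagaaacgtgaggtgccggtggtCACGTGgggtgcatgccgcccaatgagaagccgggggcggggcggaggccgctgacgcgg

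In these windows the E-box of Per1 began 166 bases before the start and that of Cry1 60 bases before it, the D-box of Per1 24 bases before it, and AGGTCA 77 bases before it in Nr1d2 and 137 bases before it in Per1. Over the 13 promoter windows of the 9 members, an E-box was present in 3 members (Per1, Cry1 and Tef), a D-box in 1 (Per1) and AGGTCA in 3 (Nr1d2, Per1 and Clock). Among all 32851 promoter windows of the same length, 6.02% held an E-box, 3.07% a D-box and 14% AGGTCA. These are shares of single windows, whereas a member was counted if any of its windows, up to 3, held the motif. The window of Nr1d1 held none of these letters, as did those of Dbp, Hlf and Npas2. A match is a description of the sequence and says nothing of binding in these livers.

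In the Cd group the clock genes differed in direction: Nr1d1 was higher than in control mice (3.32 times the control mean) and Hlf lower (0.404 times), while the other members differed by less. Values were compared as log2(TPM + 1) with limma in a single model over the 16 mice, and a gene was called at a Benjamini-Hochberg adjusted p under 0.05 over all genes tested. By that rule 30.8% of all genes were called between Cd and control (5.82% of all genes as higher in Cd and 24.9% as lower). Of the 9 members, 4 were past the same threshold, Nr1d1 as higher and Hlf, Per2 and Cry1 as lower. The groups did not overlap for 34.2% of all genes and for 5 of the 9 members (Nr1d1 and Dbp higher, Hlf, Per2 and Clock lower). The list was chosen on this contrast, so nothing is read from these counts. The median log2 difference of the members was -0.27, beside -0.17 for all genes tested; that median became -0.01 after quantile normalization and 0.05 after centring each mouse on its median.

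**Figure D1:**
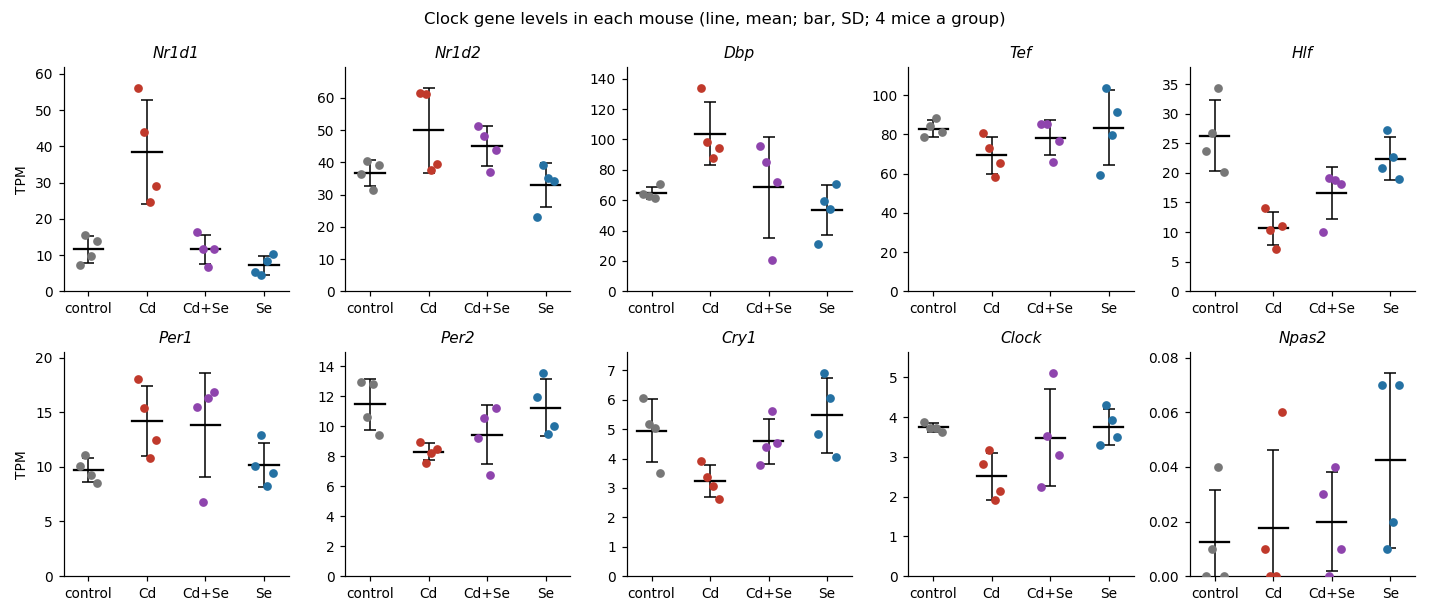
TPM of the 10 clock genes in each of the 16 mice, with 1 panel for each gene and the groups on the horizontal axis; points are mice, lines are group means and bars are SD. For Nr1d1 the 4 Cd mice (24.7 to 56.2 TPM) lie above all other mice, and for Hlf the Cd mice (7.13 to 13.99 TPM) lie below all control mice.

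Nr1d1, which encodes the repressor REV-ERBα, stood at 7.32, 15.7, 9.64 and 13.8 TPM in control mice 27 to 30. In Cd mice 1, 2, 5 and 6 it was 56.2, 43.99, 24.7 and 29.01 TPM, in Cd+Se mice 13 to 16 it was 16.5, 11.6, 6.70 and 11.7 TPM, and in Se mice 39, 40, 41 and 44 it was 5.39, 4.60, 8.34 and 10.3 TPM. Every Cd mouse was above every mouse of the other groups, whose ranges overlapped one another. The means were 11.6 ± 3.80 TPM (SD, n = 4) in control, 38.5 ± 14.4 in Cd, 11.6 ± 3.997 in Cd+Se and 7.16 ± 2.64 in Se mice. The ratio of the Cd to the control mean was 3.32, and the log2 difference was 1.63 (standard error 0.31), the 56th highest among 11766 genes. Across 24 other settings of the processing it stayed between 1.43 and 1.85, past the threshold in each. Because Nr1d1 had been singled out by its values in these Cd mice, its rank and these calls are a description and no support. The 3′ end of Nr1d1 (chr11:98767932-98775333, minus strand, GRCm38, GENCODE M21) overlaps 1075 bases of Thra, a thyroid hormone receptor gene on the other strand, and the library strand is not given in the sources used here, so reads of that stretch may belong to either gene. Thra was 3.81 ± 0.51 TPM in control, 6.38 ± 2.70 in Cd, 3.51 ± 0.63 in Cd+Se and 3.55 ± 0.75 in Se mice (SD, n = 4), a smaller difference in TPM than that of Nr1d1.

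Nr1d2, the gene of REV-ERBβ, was 36.5, 40.4, 31.3 and 39.2 TPM in control mice 27 to 30. It was 61.5 and 61.2 TPM in Cd mice 1 and 2, and 37.7 and 39.4 TPM in Cd mice 5 and 6, so that 2 Cd mice lay above the controls and 2 within their range. Its log2 difference was 0.40 (standard error 0.19) in Cd against control, and it was called only after quantile normalization and after median centring among 24 other settings. The same 2 Cd mice, 1 and 2, were also the higher ones for Nr1d1. Over the genes tested, the median log2(TPM + 1) was 2.68 in Cd mouse 5 and 2.90 in Cd mouse 6, against 3.06 to 3.36 in the other 14 mice; the part of this shift in the difference between the Cd mice was not tested. Nr1d2 averaged 45.1 ± 6.10 TPM in Cd+Se and 32.9 ± 6.93 TPM in Se mice (SD, n = 4), and neighbouring groups in the order Cd, Cd+Se, control, Se overlapped.

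The PAR bZIP genes differed in direction among themselves. Dbp, an activator at D-boxes, was 63.8, 63.1, 61.6 and 70.5 TPM in control mice and 134, 98.3, 87.5 and 94.7 TPM in Cd mice, with no overlap. In Cd+Se mice 13 to 16 it was 95.9, 85.2, 20.7 and 72.0 TPM, and in Se mice 39, 40, 41 and 44 it was 31.0, 59.1, 54.2 and 70.5 TPM. Cd+Se mouse 15 had the lowest Dbp of all 16 mice, while the other 3 Cd+Se mice were above all controls. The ratio of the Cd to the control mean was 1.60 and the log2 difference 0.65 (standard error 0.36). It was called in 2 of 24 other settings, with only the groups compared and without Cd+Se mouse 15. Dbp (chr7:45705088-45710203, plus strand) shares 737 bases with Sphk2, a sphingosine kinase gene on the other strand, which was 8.18 ± 0.82 TPM in control and 4.05 ± 0.22 TPM in Cd mice (SD, n = 4), the opposite direction.

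Hlf, a further member of that family, was 23.7, 26.8, 34.4 and 20.2 TPM in control mice 27 to 30 and 13.99, 10.4, 7.13 and 10.95 TPM in Cd mice 1, 2, 5 and 6. In Cd+Se mice 13 to 16 it was 9.96, 19.1, 18.9 and 18.2 TPM, and in Se mice 20.8, 27.3, 22.7 and 18.9 TPM. The Cd and the Cd+Se mice all lay below the control mice, and Cd+Se mouse 13 was within the range of the Cd mice. The ratio of the Cd to the control mean was 0.404, and the log2 difference was -1.24 (standard error 0.22), the 120th lowest of 11766, past the threshold in all 24 other settings. Tef, the remaining gene of the family, had group means of 83.0 ± 4.17 TPM in control, 69.3 ± 9.64 in Cd, 78.4 ± 9.07 in Cd+Se and 83.5 ± 19.0 in Se mice (SD, n = 4), with overlapping ranges and a log2 difference of -0.27 (standard error 0.15) in Cd against control. So Dbp was higher, Hlf lower and Tef within the control spread or below it in the same Cd livers.

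The period and cryptochrome genes, the negative arm of the loop, were divided as well. Per1 was 10.1, 11.1, 9.24 and 8.48 TPM in control and 18.1, 15.4, 10.9 and 12.5 TPM in Cd mice, where Cd mouse 5 overlapped the controls. Per2 was 12.97, 10.6, 12.8 and 9.44 TPM in control and 8.93, 7.55, 8.23 and 8.49 TPM in Cd mice, with every Cd mouse lower. The log2 difference in Cd against control was 0.49 (standard error 0.23) for Per1 and -0.41 (standard error 0.15) for Per2. Cry1 was 6.07, 5.18, 5.04 and 3.52 TPM in control and 3.92, 3.38, 3.06 and 2.63 TPM in Cd mice, a log2 difference of -0.48 (standard error 0.17), with control mouse 30 within the Cd range. The calls of Per2 and Cry1 were unsteady: Per2 was past the threshold in 9 of 24 other settings and Cry1 in 13 of 23. In Cd+Se mice 13 to 16 Per1 was 15.5, 6.75, 16.3 and 16.9 TPM, with mouse 14 below all controls and the others above them. The Cd+Se means of Per2 and Cry1 were 9.44 ± 1.97 and 4.59 ± 0.77 TPM, and the Se means of Per1, Per2 and Cry1 were 10.2 ± 1.98, 11.3 ± 1.88 and 5.47 ± 1.27 TPM (SD, n = 4). For Per2 and Cry1 the Cd+Se and Se ranges overlapped those of the controls. Both calls of Cd against control were lost, and those of Per1 and Nr1d2 gained, under quantile normalization and median centring, which remove the downward shift of the median gene.

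Clock, the activator gene, was 3.89, 3.73, 3.74 and 3.62 TPM in control and 2.82, 3.18, 1.92 and 2.14 TPM in Cd mice, without overlap. Its log2 difference was -0.45 (standard error 0.17), not past the threshold, though it was so in 6 of 23 other settings. In Cd+Se mice 13 to 16 Clock was 2.24, 3.53, 5.12 and 3.05 TPM, the highest of all 16 mice being mouse 15, the one with the lowest Dbp, and the Se mean was 3.76 ± 0.45 TPM (SD, n = 4). The span of Clock also holds Ube2n-ps1, a processed pseudogene of 459 bases on the same strand, so the division of reads between them is uncertain. Ube2n-ps1 was above Clock in TPM, at 19.6 ± 3.05 in control, 16.3 ± 6.95 in Cd, 20.5 ± 2.52 in Cd+Se and 22.4 ± 2.36 in Se mice (SD, n = 4). Npas2, which can stand in for Clock in other tissues, was listed at 0.07 TPM or less in every mouse, and no difference is given for it. Arntl, the table's symbol for Bmal1 and the partner gene of Clock, was also low, at 0.36 ± 0.042 TPM in control, 0.673 ± 0.285 in Cd, 0.643 ± 0.305 in Cd+Se and 0.598 ± 0.221 in Se mice (SD, n = 4). Fitted with no filter on low values, its log2 difference between Cd and control was 0.28 (SE 0.15) at a limma adjusted p of 0.295.

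By level in control mice, on the length-corrected TPM scale, the order of the members was Tef (83.0), Dbp (64.7), Nr1d2 (36.8), Hlf (26.3), Nr1d1 (11.6), Per2 (11.46), Per1 (9.72), Cry1 (4.95), Clock (3.74) and Npas2 (0.0125). Neighbours in this order were separated in the control mice except for Nr1d2 and Hlf, for Nr1d1, Per2 and Per1, and for Cry1 and Clock, whose ranges overlapped. In Cd mice Nr1d1 ranked above Hlf in every mouse, whereas in every control mouse it ranked below it.

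Between Cd+Se and Cd, 15.9% of all genes were called, 13.6% as higher in Cd+Se and 2.35% as lower, and the groups did not overlap for 19.2%. Of the 9 members, 1 was past the threshold and 1, the same gene, did not overlap: Nr1d1, with a ratio of means of 0.302 and a log2 difference of -1.63 (standard error 0.31), the 19th lowest of 11766 and past the threshold in all 24 other settings. The Cd+Se mean of Nr1d1 was 1.002 times the control mean. Hlf exceeded its Cd level in the Cd+Se group by 0.59 (standard error 0.22) on the log2 scale, Cry1 by 0.39 (0.17) and Clock by 0.33 (0.17), none past the threshold, and Per1 and Nr1d2 differed by less than their standard errors. Dbp differed by -0.77 (standard error 0.36), and by -0.28 without Cd+Se mouse 15. The members' median difference was 0.15, beside 0.17 for all genes tested. This comparison shares the Cd mice with Cd against control, so opposite signs in the pair are not independent of each other. Nr1d1 had been singled out by its values in those Cd mice, so its rank and calls here are no support either.

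**Figure D2:**
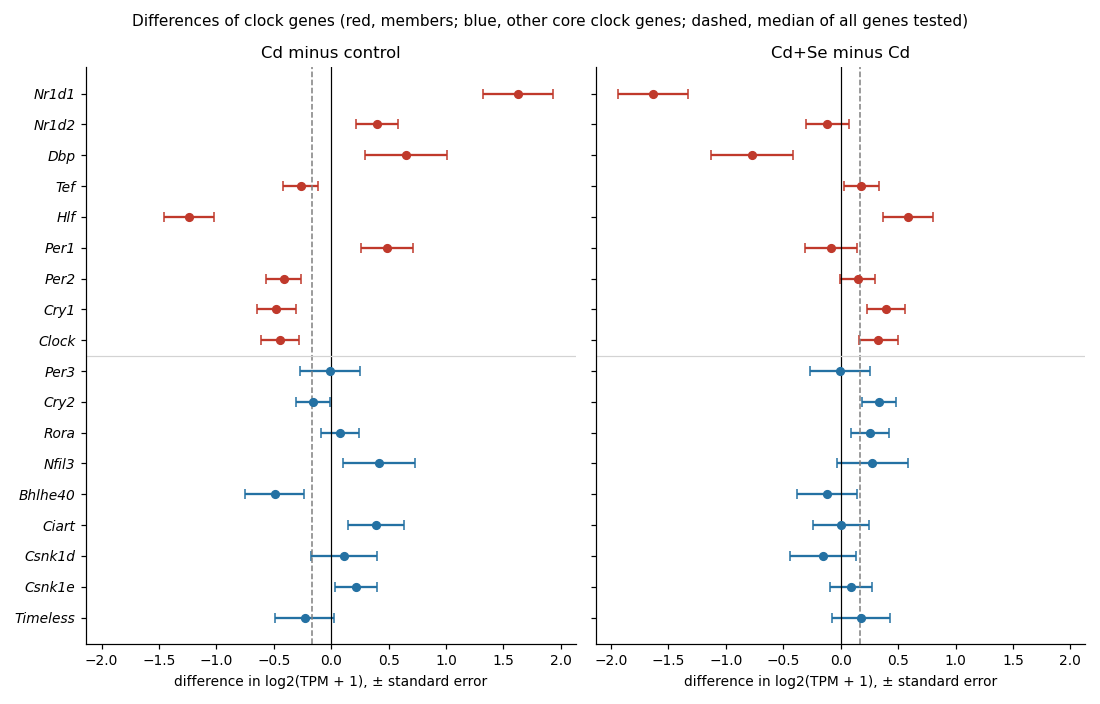
Difference in log2(TPM + 1) with its limma standard error for 9 clock genes (red) and 9 other core clock genes (blue), Cd minus control at left and Cd+Se minus Cd at right; the dashed line is the median of all genes tested (-0.17 and 0.17). Nr1d1 lies at 1.63 and -1.63 and Hlf at -1.24 and 0.59.

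The other comparisons called few genes or none. Between Cd+Se and control 0.484% of all genes were called and 8.86% did not overlap; 0 members were called, and Hlf alone did not overlap, with a log2 difference of -0.65 (standard error 0.22). In Se against control 0.0% were called (0 genes by limma, with 454 at an unadjusted p under 0.05) and 3.09% did not overlap; 0 members were called or lay apart, and Nr1d1 differed most among them, by -0.63 (standard error 0.31). In Cd+Se against Se 0.714% were called and 5.64% did not overlap, and 0 members were called or lay apart; Nr1d1 was higher in Cd+Se by 0.63 (0.31) and Nr1d2 by 0.46 (0.19). The interaction, which is the difference of Cd+Se from Se minus that of Cd from control, was called for 1.04% of all genes and 0 members, with -1.0008 (standard error 0.43) for Nr1d1 and 0.79 (0.31) for Hlf.

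The relation of evening to dawn genes was followed mouse by mouse as the mean log2(TPM + 1) of the 7 evening genes minus that of the 3 dawn genes. Npas2, 1 of these 3, was at 0.07 TPM or less in every mouse, so the dawn mean follows Cry1 and Clock. The index was 2.94, 3.20, 3.11 and 3.22 in control mice 27 to 30, 3.83, 3.59, 3.40 and 3.58 in Cd mice 1, 2, 5 and 6, 3.48, 3.17, 2.50 and 3.31 in Cd+Se mice 13 to 16, and 2.67, 2.90, 2.81 and 3.11 in Se mice 39, 40, 41 and 44. All 4 Cd mice lay above all control and Se mice, 2 Cd+Se mice lay above the controls, and Cd+Se mouse 15 had the lowest index of all. The group means were 3.12 ± 0.13 in control, 3.60 ± 0.18 in Cd, 3.12 ± 0.43 in Cd+Se and 2.87 ± 0.18 in Se mice (SD, n = 4). The evening genes averaged 4.72 ± 0.078 in control and 4.90 ± 0.28 in Cd mice, with overlap, and the dawn genes 1.61 ± 0.10 and 1.30 ± 0.12 without overlap. Thus the separation of the Cd mice came with a lower dawn mean in all 4 and a higher evening mean in Cd mice 1 and 2. The evening genes did not rise together. Their log2 differences in Cd against control ran from -1.24 for Hlf to 1.63 for Nr1d1, and Tef and Per2 were lower as well. Nr1d1, the gene singled out in these mice, thus weighs most in the higher evening mean, and the index was not computed without it. Across the other settings the log2 differences of Cry1 and Clock in Cd against control were as small as -0.26 and -0.23. The median of all genes tested was -0.17, and the part of that shift in the dawn mean was not tested. The index follows from members chosen on these mice and was not tested.

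**Figure D3:**
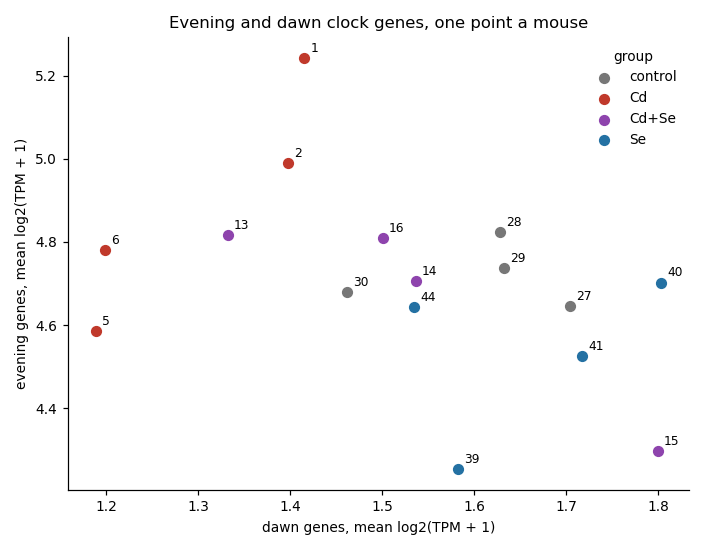
Mean log2(TPM + 1) of the evening genes (vertical) against that of the dawn genes (horizontal), with 1 point for each mouse, labelled with its number and coloured by group; both axes are cut to the range of the data. The Cd mice lie at the left (1.19 to 1.42) and Cd+Se mouse 15 at the lower right (1.80 and 4.30).

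Within groups the evening and dawn means showed no steady relation. After subtraction of the group means their Pearson r was -0.01 and Spearman's rho 0.08 over the 16 mice, and r was 0.28 without the 2 mice farthest from the median and 0.50 over the 15 mice without Cd+Se mouse 15. Among single genes, 17 of 21 pairs of evening genes had a positive r (median 0.22), as did 9 of 14 pairs of an evening and a dawn gene (median 0.17, from -0.49 to 0.65) and the pair Cry1 and Clock (0.64). Nr1d2 and Tef (0.82), Dbp and Tef (0.72), Nr1d1 and Nr1d2 (0.66) and Dbp with each REV-ERB gene (0.64) ran together, whereas Hlf ran with the dawn genes Clock (0.65) and Cry1 (0.60) and had an r of -0.16 with Dbp. Without Cd+Se mouse 15, r moved from -0.49 to 0.24 for Dbp and Clock, from 0.45 to -0.24 for Dbp and Per2 and from -0.17 to -0.65 for Nr1d1 and Per2, so these values depend on that mouse. The pairs share their libraries and the scaling of each mouse, and the values are a description without a test.

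**Figure D4:**
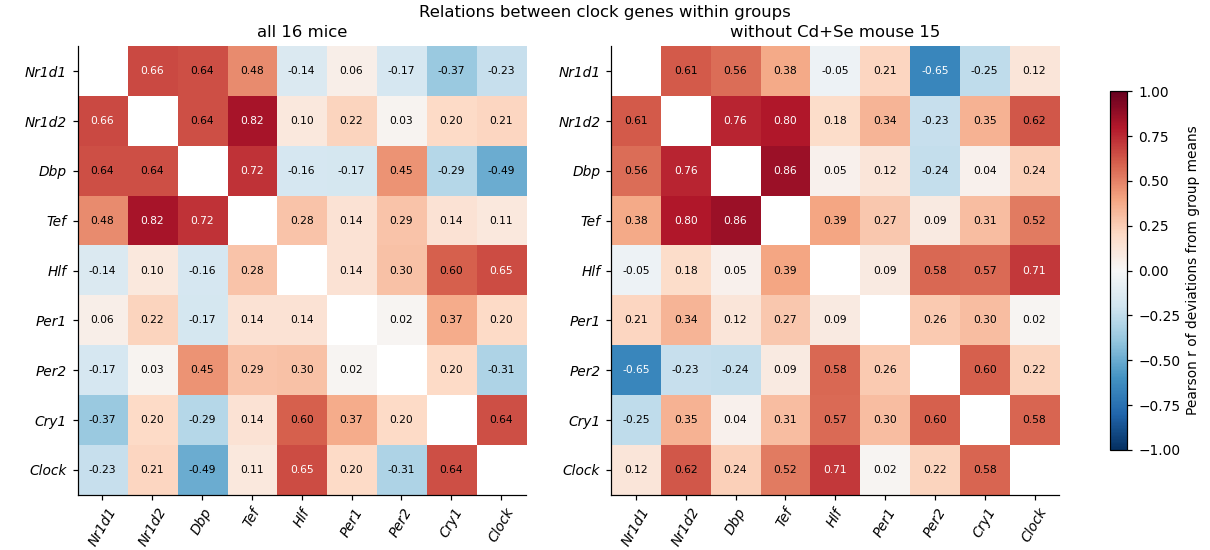
Pearson r of the deviations from group means of log2(TPM + 1) between pairs of the 9 clock genes, over all 16 mice at left and without Cd+Se mouse 15 at right; red is positive and blue negative. Nr1d2 and Tef have the highest r at left (0.82), and the r of Dbp and Clock is -0.49 at left and 0.24 at right.

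Cd+Se mouse 15 stood apart in other clock genes too. Nfil3, the repressor that opposes the PAR bZIP factors at D-boxes, was 31.4 TPM in this mouse and 6.38 to 10.6 TPM in the other Cd+Se mice. Ciart, a repressor of CLOCK and BMAL1, was 34.3 TPM against 11.9 to 15.9 TPM, and Per3, a period gene, 4.81 TPM against 10.7 to 15.5 TPM. Its mean correlation with the libraries of its group was 0.956, the lowest of the 16, where the others had 0.962 to 0.979. This mouse stood apart beyond the clock genes as well. Its summed sinusoidal endothelial markers (49.8 TPM) and stellate markers (61.8 TPM) were the lowest of its group, with group medians of 103.7 and 153.9 TPM.

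Clock genes outside the chosen list were compared by limma, with p adjusted over all 11766 genes. This list and that of the clock output genes were also drawn up with earlier results of these mice known, so their p-values and counts are not independent evidence of a change in the clock. Of 12 other core clock genes reported here, 9 were tested, Arntl, Arntl2 and Bhlhe41 averaging under 1 TPM. In Cd against control 0 of 9 were called by limma and 0 had an unadjusted p under 0.05, beside the 30.8% of all genes called. Their log2 differences lay between -0.49 for Bhlhe40 and 0.42 for Nfil3, with a list median of 0.08. Nfil3, a repressor that competes with the Dbp family for its sites, averaged 7.04 ± 1.32 TPM in control and 9.64 ± 0.92 in Cd mice (SD, n = 4), higher without overlap (limma adjusted p = 0.327). Ciart, a repressor of CLOCK and BMAL1, averaged 13.4 ± 2.22 TPM in control and 17.9 ± 1.67 in Cd mice (log2 difference 0.39, SE 0.24). In it 3 of 4 Cd mice were above all control mice and the ranges overlapped. Per3, the remaining period gene, averaged 10.1 ± 0.61 TPM in control and 10.1 ± 1.25 in Cd mice, and Cry2, the remaining cryptochrome, 9.98 ± 1.18 and 8.94 ± 1.82 TPM. Bhlhe40, a repressor of clock target genes, averaged 91.7 ± 24.0 TPM in control and 63.4 ± 6.34 in Cd mice, with overlap. In Cd+Se against Cd limma again called 0 of 9, 1 of them at an unadjusted p under 0.05, with log2 differences from -0.15 to 0.33. In the other comparisons and the interaction limma called 0 of 9, and 0 to 2 had an unadjusted p under 0.05.

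The clock output genes are genes known to be rhythmic in liver, many of them metabolic, and many are driven by PAR bZIP factors or REV-ERB. Of 14 tested, 7 were called as lower in Cd against control and 0 as higher, beside 24.9% and 5.82% of all genes. The median log2 difference was -0.49 (-0.17 for all genes). Elovl3, a fatty acid elongase, went the other way without overlap (12.75 to 22.57 TPM in control, 23.44 to 59.5 TPM in Cd mice). Its log2 difference was 1.16 (SE 0.52), not called (limma adjusted p = 0.098). Cyp7a1, the rate-limiting enzyme of bile acid synthesis, went from 98.9 ± 26.4 TPM in control to 17.2 ± 8.89 TPM in Cd mice (SD, n = 4), a log2 difference of -2.55 (SE 0.30) at a limma adjusted p of 9.30e-05. Alas1, the first enzyme of haem synthesis, went from 962 ± 113 to 256 ± 25.2 TPM (SD, n = 4; limma adjusted p = 0.000161), and Por, the electron donor of cytochrome P450 enzymes, from 180 ± 16.1 to 67.7 ± 1.63 TPM (SD, n = 4; limma adjusted p = 0.00146). Wee1, a cell cycle kinase, fell by 1.24, Ppara, the receptor that drives fatty acid oxidation, by 1.15, Usp2, a deubiquitinase, by 0.75 and Nampt, which makes NAD, by 0.73 on the log2 scale (limma adjusted p between 0.000479 and 0.00953). In each of these 7 genes every Cd mouse lay below every control mouse, and all 7 were called in every other setting, except Usp2 and Nampt where a log2 difference of at least 1 was also required.

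Of the same 14 output genes, 6 rose in Cd+Se against Cd and 0 fell, beside 13.6% and 2.35% of all genes, with a median of 0.73 (0.17 for all genes). They were Cyp7a1 (log2 difference 1.56), Por (1.20), Alas1 (1.15), Wee1 (1.06), Nampt (0.92) and Ppara (0.90), with limma adjusted p between 0.00480 and 0.0117 and no overlap between the groups; Usp2 differed by 0.56 (limma adjusted p = 0.0594). With only the Cd and Cd+Se mice in the model, Por and Cyp7a1 were not past the threshold (limma adjusted p = 0.0562 and 0.0556). Cyp7a1 was 48.9 ± 10.3 TPM in Cd+Se and 167 ± 48.6 TPM in Se mice (SD, n = 4), and it was the 1 of 14 called in Cd+Se against Se (log2 difference -1.73, standard error 0.30, limma adjusted p = 0.0127), a call lost without Cd+Se mouse 13 or without Se mouse 44. The remaining comparisons and the interaction called 0 of 14. In Cd+Se against control 3 output genes did not overlap, beside 8.86% of all genes. Alas1 (453 to 860 against 862 to 1106 TPM) and Cyp7a1 (41.1 to 63.1 against 70.9 to 135 TPM) were lower in Cd+Se mice. Cdkn1a was higher (1.24 to 21.5 against 0.39 to 1.19 TPM). Cd+Se against Cd shares the Cd mice with Cd against control, so opposite signs are not independent.

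**Figure D5:**
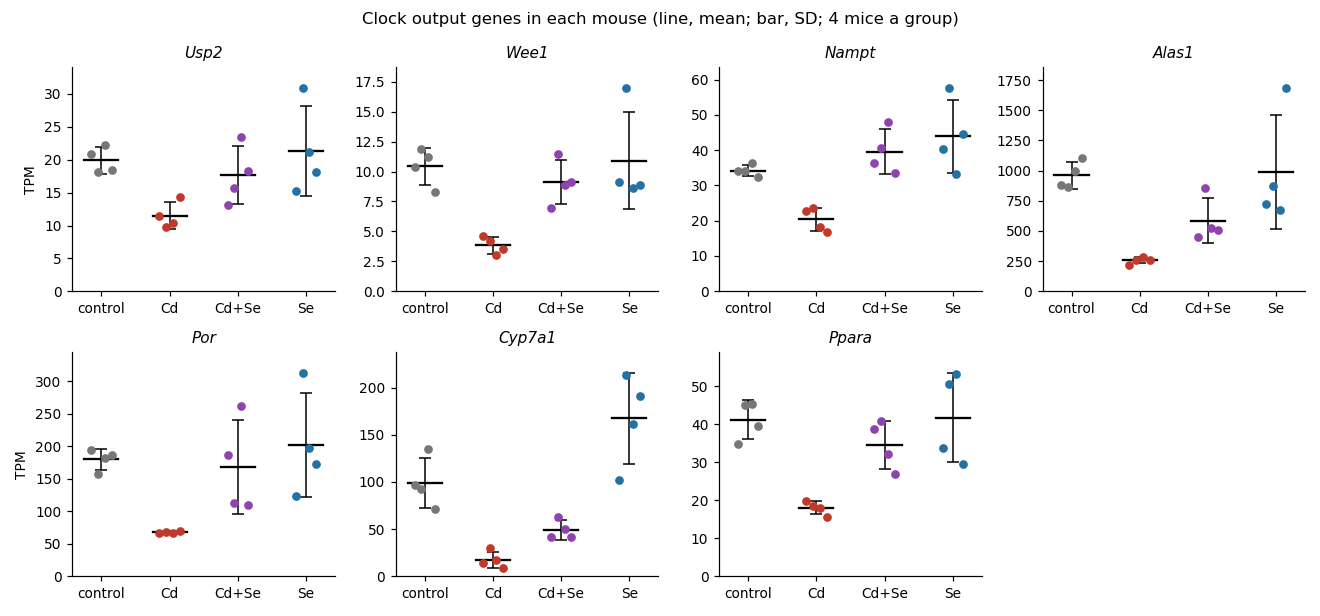
TPM of 7 clock output genes in each mouse, by group; points are mice, lines are means and bars are SD (n = 4). In each of the 7 panels the 4 Cd mice lie below all control mice, for example 8.37 to 29.4 TPM of Cyp7a1 against 70.9 to 135 TPM.

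Lists of cell type markers and of feeding and stress genes were read beside the shares of all genes in Cd against control, 24.9% lower and 5.82% higher. Of the 5 Kupffer cell markers 5 fell (summed 96.9 to 118 TPM in control, 30.7 to 51.9 TPM in Cd mice), and of the neutrophil markers the 3 tested rose (5.73 to 15.8 against 31.4 to 39.6 TPM), with the defining marker Ly6g under 0.2 TPM in every mouse. Both lists differed likewise in Cd+Se against control, where 0.484% of all genes were called. There 3 of 5 Kupffer cell markers fell (26.4 to 59.4 TPM) and the 3 neutrophil markers rose (44.05 to 73.2 TPM). Acute-phase genes rose in 4 of 6 cases in Cd against control and in 1 of 6 in Cd+Se against control, where few genes of any kind were called. The median log2 differences of the list were alike, 2.96 and 2.67, and 0 of 6 were called in Cd+Se against Cd. Their summed levels were 2243 to 12120 TPM in control, 6173 to 18180 in Cd and 4583 to 28500 in Cd+Se mice. Hepatocyte markers such as Alb were present in every mouse, with summed levels of 37050 to 111300 TPM. In Cd against control 2 of 6 fell, Hnf4a (log2 difference -0.81) and Cps1 (-1.36), and Alb was not called. Hnf4a and Cps1 were also the 2 of 6 called as higher in Cd+Se against Cd (0.58 and 0.87), beside 13.6% of all genes. A fall in Cd with a higher level in Cd+Se was thus not particular to the clock output genes. In Cd against control 2 of the 5 sinusoidal endothelial markers fell (85.2 to 99.1 against 58.8 to 79.1 TPM). Of the stellate markers 1 of 4 tested fell, and of the cholangiocyte markers 0 of 1 tested. The lymphocyte markers summed to under 4 TPM in every mouse. Fasting genes fell in 3 of 6 cases and fed-state genes in 1 of 6. Of 7 glucocorticoid-responsive genes 1 fell, so the stellate, cholangiocyte, fed-state and glucocorticoid lists were near or below the share of all genes. The gene that fell was Fkbp5, a co-chaperone of the glucocorticoid receptor, at 26.2 ± 5.30 TPM in control and 10.1 ± 1.58 TPM in Cd mice (SD, n = 4; limma adjusted p = 0.0221). The summed level of that list, 1157 to 1668 TPM in control and 1816 to 2379 TPM in Cd mice, was mostly Pck1 and Tat, enzymes of glucose and tyrosine metabolism that averaged 1248 and 808 TPM in Cd mice and were not called. The sum was 545 to 4222 TPM in Cd+Se mice, the highest being mouse 15 with 1957 TPM of Tat and 1907 TPM of Pck1, and 819 to 1822 TPM in Se mice. In bulk liver, fewer cells of a type and less RNA per cell cannot be told apart. The part of cell makeup, feeding, stress hormones or hour of collection in the clock gene levels was not tested.

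The genes whose pattern within groups was most like that of a member were ranked by Pearson r of the deviations from group means over the 16 mice, among 11765 other genes. For Dbp the order began with the clock gene Per3 (0.96), then Mndal (0.95), Casp1 (0.95), Nit2 (0.93) and Kdm5d (0.92). At its other end were Slc45a3 (-0.94), Gja4 (-0.87), 1810055G02Rik (-0.87), Trp53inp1 (-0.86) and Gm12013 (-0.85), with Nfil3 85th from the lowest (-0.68) and Ciart 194th (-0.59). Much of this order rests on Cd+Se mouse 15. Without it, Per3 was the 3rd most like Dbp (0.92) and Kdm5d the most like it (0.95), while Mndal, Casp1 and Nit2 had an r of 0.82, 0.81 and 0.77. At the other end Slc45a3 was at -0.75, 1810055G02Rik at -0.73, Gja4 at -0.58 and Trp53inp1 at -0.39, Gm12013 was listed at 0 in all the remaining mice and so had no r, and Nfil3 and Ciart had a positive r of 0.40 and 0.29. Among the members, Tef ranked 373rd for Dbp, Nr1d2 727th and Nr1d1 730th with all 16 mice, and 22nd, 178th and 1670th without mouse 15. Clock went from 337th from the lowest (-0.49) to 4942nd from the lowest (0.24).

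Npas2 had been planned as the second reference, and since it was near 0 TPM, Clock and Nr1d1 were used after its values were seen. Most like Clock were Lrrc58 (0.94), Senp2 (0.93), Mcu (0.92), Mocs2 (0.91) and Sec22c (0.91), and among the least like it were Nif3l1 (-0.91), Pot1a (-0.84), Ifi27l2a (-0.80) and Cpxm1 (-0.80). For Nr1d1 they were Zkscan3 (0.86), Zfp955a (0.86), Atf7ip (0.85), Rufy3 (0.85) and Ccdc28a (0.85) at the top and Tcim (-0.78), Gja4 (-0.77), mt-Nd1 (-0.77), Rpl14-ps1 (-0.76) and Mras (-0.76) at the bottom, with Nr1d2 243rd, Dbp 289th and Per3 484th. Without Cd+Se mouse 15 the 5 genes named as most like Clock had an r of 0.85 to 0.91, and of those least like it Nif3l1 was at -0.87, Pot1a at -0.78, Ifi27l2a at -0.62 and Cpxm1 at -0.58. For Nr1d1 the same top genes were at 0.81 to 0.86 and the bottom ones at -0.84 to -0.73, with Nr1d2 346th, Dbp 557th and Per3 1413th. None of these leading genes of Clock and Nr1d1 is on the clock lists used here.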

How the data were processed

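Liver RNA-seq of 16 mice was analysed from the table the authors deposited, whose values are TPM for 57010 genes. The submitters' processing notes name fastp, HISAT2 and StringTie without versions and the human build GRCh38, although all gene identifiers are mouse ones; strand and annotation are not given in the sources used here. TPM keep no depth, so no count test was run. Here log2(TPM + 1) of the 11766 genes averaging 1 TPM or more was fitted by limma 3.58.1 (R 4.3.3) with 4 group means and an intensity trend in eBayes, and p-values were adjusted by Benjamini-Hochberg with a threshold of 0.05. A fold change on this scale understates that of low genes. Each limma p-value sets a difference between group means against the spread between mice within groups, pooled over the groups and moderated across genes.

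The members and all lists were chosen with earlier results of these data known. Named were all members, the other core clock genes, the output genes past the threshold and the 5 genes most and least like a member; 2 listed core clock genes and 1 ranked gene are not reported here. Relations of Arntl were tested by 100000 permutations of mice within groups. Gene positions are from GENCODE M21 (GRCm38) and promoters from RefSeq, read with Python 3.11.15. Of the steps, only the limma fit was tested on simulated data. Alternatives were a pseudocount of 0.1, no filter, a minimum of 5 TPM, quantile normalization, median centring, only the groups compared, no trend, a log2 difference of at least 1 and leaving out each mouse; those with Npas2 left out or replaced and those without Cd+Se mouse 15 were chosen after seeing the data. No 2 libraries were identical (highest r 0.981).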

Additional observations from a re-analysis of the deposited data

Results flagged for a closer look

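In 7 of 120 gene and group combinations looked at, 1 mouse lay far from the other 3 of its group, with a gap to the nearest of them that, as a share of the group's whole range, was over Dixon's 95% critical value for 4 samples; chance flags about 1 in 20, which is 6.0 here. Among the members, Hlf was 9.96 TPM in Cd+Se mouse 13 against 18.2 to 19.1 TPM in the others (gap 0.898 of the range). Per1 was 6.75 TPM in Cd+Se mouse 14 against 15.5 to 16.9 TPM (0.862). Npas2 was 0.06 TPM in Cd mouse 6 against 0 to 0.01 TPM (0.833), all of it close to 0. Among other clock genes, Nfil3 was 31.4 TPM in Cd+Se mouse 15 against 6.38 to 10.6 TPM (0.832), and Ciart was 15.4 TPM in Cd mouse 5 against 18.5 to 18.9 TPM (0.888). Of the output genes, Wee1 was 17.0 TPM in Se mouse 40 against 8.62 to 9.13 TPM (0.939), and Alas1 was 860 TPM in Cd+Se mouse 14 against 453 to 521 TPM (0.834).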

How the results depend on the processing

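No result changed direction past the threshold under any alternative. Of the values computed for the comparisons under alternatives, 421 were judged the same and 20 as moved. Counts were judged by a change within 1.5 times, and the index by the pooled spread between mice (SD 0.258). Relations of Arntl were judged by the side of the threshold on which they fell. The index scaled to an SD of 1 was held to the same spread although its units differ. The number of members past the threshold in Cd against control, 4 as reported, was 2 with no filter, 7 with only the groups compared, 2 with a log2 difference of at least 1 also required, and 2 to 6 without 1 mouse each; it was 2 without control mouse 27, 28 or 29 or without Cd mouse 5 or 6. In Cd+Se against Cd it was 1, and 1 to 2 without 1 mouse each, Hlf joining without Cd mouse 1 or without Cd+Se mouse 13. Of the clock genes outside the members, 1 was called in Cd+Se against Se, and 0 to 1 without 1 mouse each, with 0 without Cd+Se mouse 13 or Se mouse 44. In the interaction 0 were called (limma; 5 at an unadjusted p under 0.05), against 1 under quantile normalization, 1 under median centring and 0 to 3 without 1 mouse each, with 3 without Se mouse 40 and 1 without Se mouse 44. With each member scaled to an SD of 1, the difference in the evening minus dawn index was 0.995 in Cd against control, -0.993 in Cd+Se against Cd, -0.815 in Se against control and 0.818 in Cd+Se against Se, in units of SD, against 0.484, -0.484, -0.244 and 0.243 as reported. The cause of these changes was not tested beyond what the settings themselves change. No paired analysis was possible because the groups share no mouse numbers. TPM without depth give no limit of detection for Npas2 or Arntl.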

Other observations

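Arntl, the gene of BMAL1, was compared with 5 clock genes outside the members, as deviations from group means of log2(TPM + 1) over the 16 mice. REV-ERB represses Arntl, and in a running clock its mRNA is known to be high when that of the evening genes is low. The Pearson r was 0.59 with Nfil3 (Spearman's rho 0.44, permutation p = 0.0876 and 0.134), 0.49 with Cry2 (rho 0.41, permutation p = 0.121 and 0.168) and 0.34 with Ciart (rho 0.35, permutation p = 0.365 and 0.261). It was 0.09 with Bhlhe41 (rho 0.08, permutation p = 0.741 and 0.764) and -0.20 with Per3 (rho -0.01, permutation p = 0.586 and 0.966). Over these 5 relations the Benjamini-Hochberg adjusted permutation p lay between 0.303 and 0.741 for r and between 0.42 and 0.966 for rho, and none passed. Without the 2 mice farthest from the median of Arntl, r was 0.46 with Nfil3, 0.25 with Cry2, 0.46 with Ciart, 0.23 with Bhlhe41 and -0.25 with Per3. Arntl was under 1 TPM in every mouse, so these relations are over low values. Of the output genes that were not called, Elovl3, a fatty acid elongase, was 15.6 ± 4.70 TPM in control, 37.3 ± 16.03 in Cd, 13.9 ± 9.55 in Cd+Se and 10.2 ± 6.63 in Se mice (SD, n = 4; limma adjusted p = 0.098 in Cd against control). Every Cd mouse was above every control mouse for Elovl3.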
